A study of Mus musculus with 12 samples.

Results

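Integrins are cell-surface receptors made of 1 alpha and 1 beta subunit, and laminins are basement-membrane proteins made of 1 alpha, 1 beta and 1 gamma chain. Their genes were described in RNA-seq of cells from mouse fat: the stromal vascular fraction, a mixture that remains once mature adipocytes are removed. The members were all rows of the deposited count tables named as an integrin alpha subunit, an integrin beta subunit or a laminin alpha, beta or gamma chain. This gave 37 of 24422 rows, 26 integrin subunits and 11 laminin chains, and the rule goes by gene name. Of the 37, 36 passed the filter on low counts, as did 16713 genes in all. Itgad, the αD subunit of leukocyte integrins, did not pass, with at most 1.19 CPM (reads of the gene per 1000000 counted reads) in any library and 0 counts in each HFD TertCi library, where the least deep library allows up to 0.193 CPM.

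The 12 libraries formed 4 groups of 3, named here by diet and by what the modified p21 allele carries. The standard-diet control (SD mCherry, replicates 1, 2 and 3) and the high-fat-diet control (HFD mCherry, replicates 15, 17 and 20) had the genotype p21+/mcherry. HFD Tert (25, 26 and 27) had p21+/mcherry-Tert and HFD TertCi (30, 31 and 33) had p21+/mcherry-TertCi, both on the high-fat diet. Tert is the catalytic subunit of telomerase, and TertCi is its catalytically inactive form. The p21 promoter drives both, so the transgene is made where Cdkn1a, the gene of the cell-cycle inhibitor p21, is active. All 4 groups, controls included, carry 1 modified p21 allele, there is no unmodified control and no Tert group on the standard diet. The series' design text writes the high-fat-diet control as p21+/-, whereas the labels of those samples give p21+/mcherry, which was followed. Age, sex, depot and batch are not given in the sources used here, and nothing states that replicates are separate animals, so p-values measure the spread between these samples.

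Integrins bind extracellular proteins outside the cell and connect, through talin and kindlin, to the actin cytoskeleton inside it. Their alpha subunits fall into collagen-binding, RGD-binding, laminin-binding, α4/α9 and leukocyte classes, where RGD is the peptide motif of fibronectin and vitronectin that the receptors recognise. In adipose tissue, laminins line adipocytes and blood vessels, and the leukocyte integrin αX (CD11c, encoded by Itgax) is widely used to mark the macrophages that gather in obesity.

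The start regions of members that were lower together are shown for orientation. DESeq2, a negative-binomial count test used beside the main one, called 5 of 36 tested members (13.9%) lower in HFD Tert than in HFD mCherry, against 3.08% of all genes: Itgam, Itgav, Itgax, Itgb2 and Lama2. The main test, edgeR, and limma-voom called none of them. The windows of 4 of them are printed below, each 250 bases upstream of a RefSeq gene start (build GRCm38.p6), 5′ to 3′ on the gene's strand. Capitals mark GAGGAA, the core letters recognised by the myeloid factor PU.1, or its reverse complement TTCCTC.
Itgam, chr7:128062390-128062639, plus strand: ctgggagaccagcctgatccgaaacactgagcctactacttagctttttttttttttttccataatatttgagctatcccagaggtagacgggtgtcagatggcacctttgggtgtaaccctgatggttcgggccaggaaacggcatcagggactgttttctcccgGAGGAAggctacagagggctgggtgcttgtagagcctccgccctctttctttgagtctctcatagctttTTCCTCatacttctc
Itgax, chr7:128129300-128129549, plus strand: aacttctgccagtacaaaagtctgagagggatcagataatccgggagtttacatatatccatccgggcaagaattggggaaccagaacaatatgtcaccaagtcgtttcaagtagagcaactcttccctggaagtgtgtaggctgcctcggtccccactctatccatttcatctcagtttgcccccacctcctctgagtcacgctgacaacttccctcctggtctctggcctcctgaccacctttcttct
Itgav, chr2:83724147-83724396, plus strand: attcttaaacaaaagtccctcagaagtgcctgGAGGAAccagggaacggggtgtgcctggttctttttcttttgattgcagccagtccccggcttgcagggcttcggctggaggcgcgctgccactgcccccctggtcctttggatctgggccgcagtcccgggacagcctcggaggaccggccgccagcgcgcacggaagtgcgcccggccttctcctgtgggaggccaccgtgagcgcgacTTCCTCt
Lama2, chr10:27616943-27617192, minus strand: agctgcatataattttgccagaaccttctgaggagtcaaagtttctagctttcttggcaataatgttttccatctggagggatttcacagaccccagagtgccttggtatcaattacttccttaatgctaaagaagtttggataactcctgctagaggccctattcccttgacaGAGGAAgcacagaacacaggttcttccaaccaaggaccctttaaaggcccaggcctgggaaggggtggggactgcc
The matches in Itgam begin 84 and 15 bases upstream of the start, those in Itgav 218 and 7 bases, and the single match in Lama2 76 bases. The Itgax window holds none. A window was found for 23 of the 37 members, and 11 of them (47.8%) held the motif on either strand, against 6252 of 27025 windows in the whole table (23.1%). Among leukocyte subunits with a window, Itgam held it and Itgax and Itgb7 did not. The other carriers were integrin subunits outside that class and laminin chains. Other motifs were searched too. The GC box was found in 34.8% of member windows, against 32.9% of the table, and the remaining motif in 0%, against 13.0%. The member windows had a median GC content of 58.4%, against 52.0% for the table. These matches describe letters and not binding.

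Totals ran from 16430330 to 19486965 counts per library, and the members made up 0.254 to 0.606% of them. The count of the mCherry_Tert row was 0 in the 6 mCherry libraries and 33 to 86 in the 6 Tert and TertCi libraries. Macrophage, endothelial, adipose progenitor and smooth muscle markers were all detected in every library, and Adipoq, an adipocyte marker, reached at most 7.85 CPM. Markers of epididymis and epithelium also appeared, and their summed level ran from 56.2 to 54740 CPM. Epcam, an epithelial adhesion protein, was at 3.23 to 36.9 CPM in 4 libraries (HFD mCherry 17 and 20, HFD Tert 27, HFD TertCi 31) and at 66.2 to 543 CPM in the other 8. HFD mCherry 15 thus stood apart from the 2 other libraries of its group. Crisp1, an epididymal secretory protein, split the libraries otherwise: it was under 1 CPM in 1 library of each group (SD mCherry 2, HFD mCherry 20, HFD Tert 27, HFD TertCi 31). The line at 50 CPM of Epcam was drawn after its values were seen, and results are given within both sides of it below.

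Levels between genes were compared per kilobase (kb) of exon. Over the 12 libraries Itgb1, the beta subunit shared by the most integrins, had the highest mean at 224 CPM per kb. It was followed by the fibronectin receptor subunit Itga5 at 95.3, Lamb2 at 60.8 and Lamc1 at 55.9 CPM per kb. The lowest tested members were Itgb8, an activator of TGF-beta, at 0.221 and Itgae, the partner of Itgb7 in intraepithelial lymphocytes, at 0.222 CPM per kb. Itgb1 made up 65.6 to 88.7% of the 8 beta subunits per kb, and its 2 lowest shares were in HFD mCherry 17 and 20.

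The first comparison, HFD mCherry against SD mCherry, gives the difference between the diets. All 6 tested leukocyte subunits had positive log2 fold changes on the high-fat diet, with a median of 1.91. Itgae was among them at 1.69, although HFD mCherry 17 and 20 lay inside its SD mCherry range. The RGD-binding alpha subunits (2 of 4 positive, median 0.14) and the laminins (5 of 11 positive) went both ways. No member passed the main test, edgeR's quasi-likelihood test with Benjamini-Hochberg adjustment over all 16713 genes at 0.05, whose background was 0.0479%. limma-voom also called 0 members (background 0%). The smallest member adjusted p was 0.0705, for Itgb5. At an unadjusted p under 0.05, 15 of 36 tested members (41.7%) were higher and 2 (5.56%) lower, against 14.1% and 10% of all genes tested. The 3 libraries of each group did not overlap for 9 members higher (25%) and 3 lower (8.33%), against 13.9% and 11.6%. DESeq2 called 12 higher (33.3%) and 1 lower (2.78%), against 8.03% and 4.57%. By the unadjusted, overlap and DESeq2 counts the share of higher members exceeded the background and the share of lower members did not. These counts use the same libraries, and the members were chosen with earlier results known, so this is a description and no test. The median log2 fold change was 0.61 over the tested members and −0.08 over all genes tested. Without HFD mCherry 17 the members' median was 0.39, and with scaling by library size alone 0.37 (all genes −0.28).

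**Figure D1:**
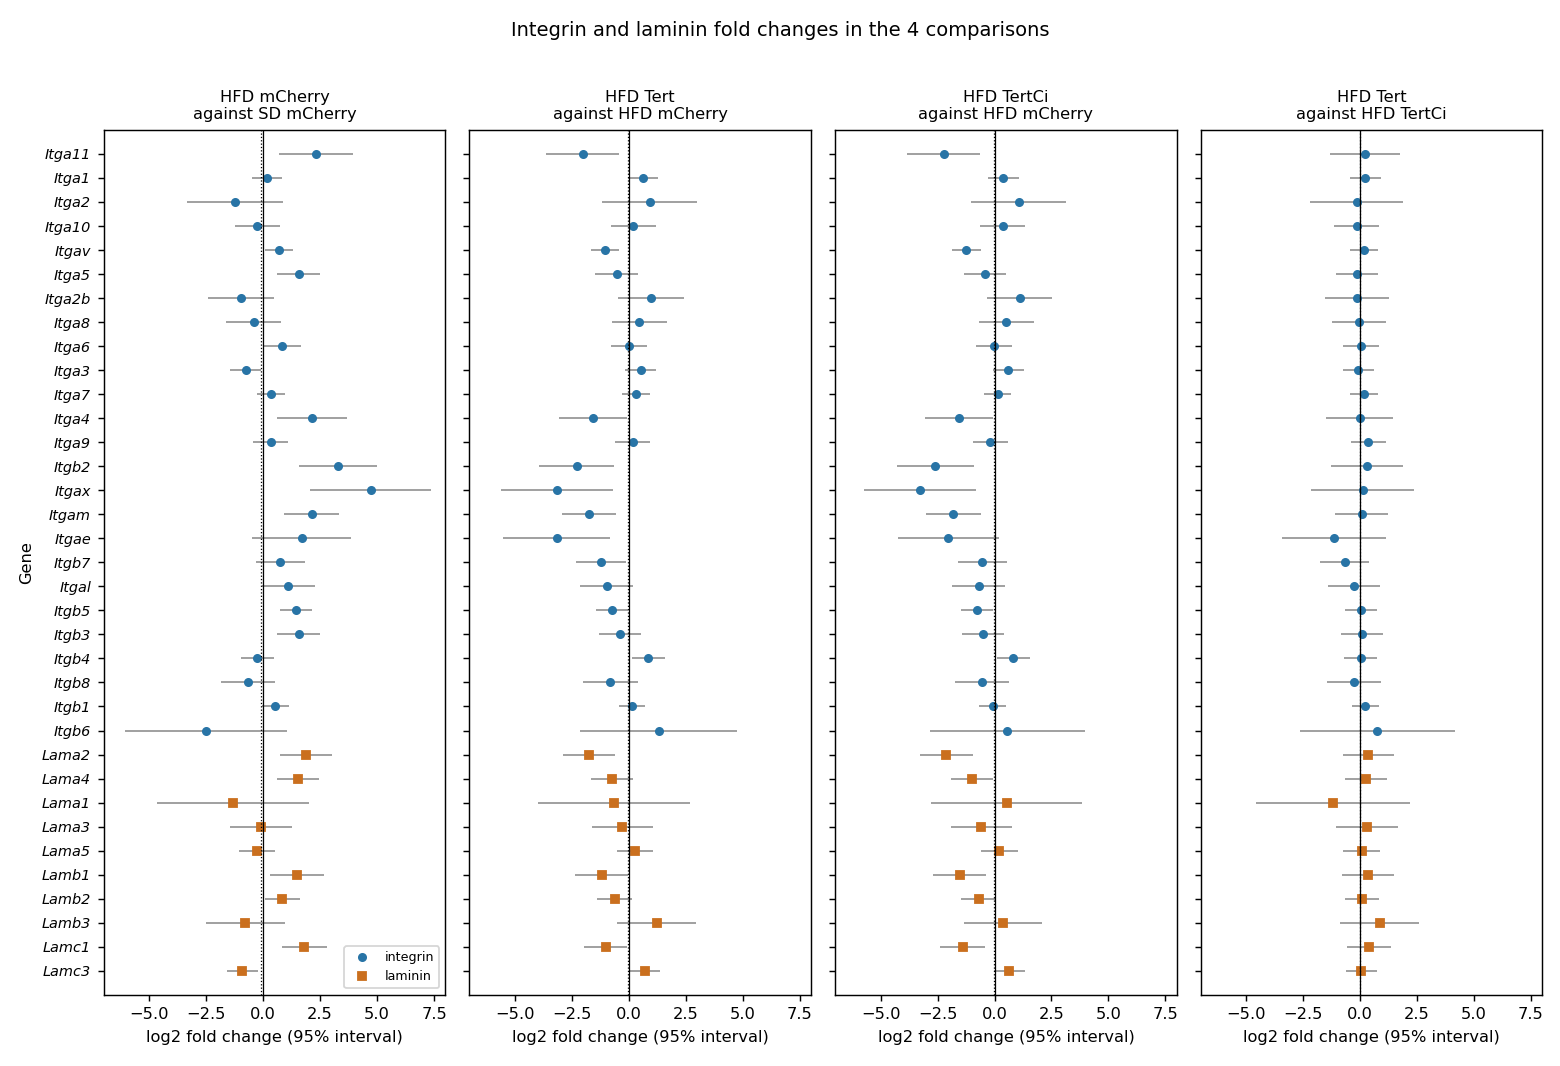
Log2 fold change of 35 of the 36 tested members in each of the 4 comparisons (points, circles for integrins and squares for laminins) with 95% intervals, genes in rows; the dotted line is the median of all genes tested. Itgax and Itgb2 lie farthest to the right with diet, at 4.71 and 3.27, and no member passed edgeR's adjusted test in any panel.

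Among the leukocyte subunits, Itgax and Itgb2 had the largest fold changes of all tested members. Itgax, the αX subunit, was at 6.57, 8.39 and 10.7 CPM in SD mCherry and 45.4, 301 and 326 CPM in HFD mCherry. The groups did not overlap, and HFD mCherry 15 was far below the 2 others. The log2 fold change was 4.71 ± 1.19 (SE), with an adjusted p of 0.0760 by edgeR and 1.08e-04 by DESeq2. Itgb2, the beta subunit that αL, αM, αX and αD share, was at 20.8, 23.2 and 10.2 CPM in SD mCherry and 67.7, 244 and 212 CPM in HFD mCherry. Its log2 fold change was 3.27 ± 0.780 (SE), again with no overlap (edgeR adjusted p = 0.0727). Itgam, the αM subunit of the complement receptor CD11b/CD18, was at 26.8, 23.1 and 33.5 against 58.7, 156 and 151 CPM. This gave 2.13 ± 0.549 (SE) on the log2 scale, also without overlap (edgeR adjusted p = 0.0761). Itgal, the αL subunit of LFA-1, overlapped between the diets, at 3.07 to 10.9 against 10.1 to 25.7 CPM. Itgb7, the partner of α4 in gut-homing lymphocytes, overlapped too, at 4.40 to 12.5 against 8.29 to 22.2 CPM. Itgae was at 6.13 CPM in HFD mCherry 15 and at no more than 1.16 CPM in any other library.

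Markers of 3 myeloid cell types moved with these subunits. All 6 macrophage markers were higher in HFD mCherry, and their sum was 284 to 468 CPM in SD mCherry and 1078 to 2857 CPM in HFD mCherry, with none at 0 in any library. In this mixed tissue, fewer cells of a type and less RNA per cell cannot be told apart. Itgam was 4.94 to 11.8% of the macrophage sum in SD mCherry and 5.44 to 6.10% in HFD mCherry. Itgax was 1.42 to 3.78% of it in SD mCherry and 4.21, 10.6 and 13.2% in HFD mCherry, so its share was higher in every high-fat-diet control library. The share of Itgb2 was higher without overlap too, at 3.59 to 4.96% against 6.28 to 8.6%. That of Itgal was lower without overlap, at 1.08 to 2.33% against 0.704 to 0.932%. Among the 4 alpha subunits that pair with Itgb2, Itgax took 16.4 to 23.8% of the level per kb in SD mCherry and 41.5, 64.1 and 67.4% in HFD mCherry. αX is also carried by dendritic cells, whose 5 markers were all higher in HFD mCherry, 4 of them without overlap. Their sum was 24.9 to 35.5 CPM in SD mCherry and 50.04 to 98.8 CPM in HFD mCherry. Of the neutrophil markers, 3 of 3 tested were higher, 2 of them without overlap, and the sum was 3.25 to 6.66 against 11.5 to 19.8 CPM. The untested neutrophil marker Retnlg was at 0 in 3 libraries and at no more than 0.529 CPM in any. The sum of the T-cell markers was 5.68 to 6.47 against 3.701 to 7.23 CPM. The part of these cell types in the differences was not tested.

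**Figure D2:**
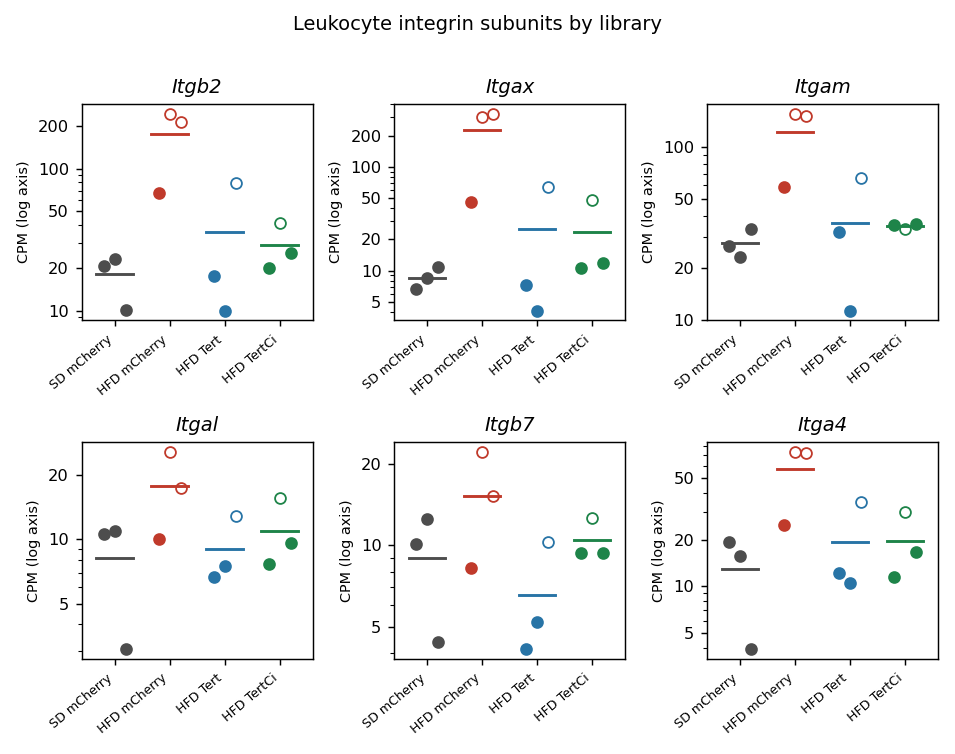
Levels of 6 leukocyte-associated integrin subunits in CPM (log axis) for each library of the 4 groups, with a line at each group mean. Filled points are libraries with Epcam above 50 CPM and open points those below. In Itgb2, Itgax and Itgam all 3 HFD mCherry points lie above all 3 SD mCherry points.

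Among the α4/α9 and collagen-binding subunits, Itga4 and Itga11 did not overlap between the diets. Itga4, the α4 subunit of the VCAM-1 receptor, was at 19.4, 15.7 and 3.94 CPM in SD mCherry and 24.97, 73.5 and 72.8 CPM in HFD mCherry. The groups did not overlap, and the log2 fold change was 2.13 ± 0.692 (SE) with an edgeR adjusted p of 0.116. The count of Itga4 may be affected in either direction by its counted opposite-strand neighbour Cerkl, whose exons overlap its own. The same holds for Itga8 and E030013I19Rik. The use of strand in counting is not given in the sources used here. Itga9, its closest relative and a receptor for tenascin, overlapped, at 35.4 to 58.7 against 30.9 to 77.6 CPM. Itga11, a receptor for fibrillar collagen in fibroblasts, was at 7.33, 10.6 and 2.32 CPM in SD mCherry and 10.9, 44.0 and 46.2 CPM in HFD mCherry. HFD mCherry 15 was only just above the highest SD mCherry library, and the log2 fold change was 2.32 ± 0.727 (SE; edgeR adjusted p = 0.110). The other collagen-binding subunits, Itga1, Itga2 and Itga10, all overlapped.

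Of the RGD-binding class, Itga5 was at 215, 244 and 230 CPM in SD mCherry and 285, 800 and 949 CPM in HFD mCherry. The groups did not overlap, and the log2 fold change was 1.56 ± 0.428 (SE; edgeR adjusted p = 0.0860). Itgav, the αV subunit of vitronectin receptors, was at 194, 261 and 151 against 219, 386 and 377 CPM. HFD mCherry 15 lay within the SD mCherry range, and the log2 fold change was 0.70 ± 0.281 (SE; edgeR adjusted p = 0.175). Itga8 and Itga2b, the platelet αIIb subunit, overlapped. Itga2b was highest in SD mCherry 3 at 63.2 CPM, the library with the most Myh11, a smooth muscle myosin, at 5016 CPM. Of the 5 platelet and megakaryocyte markers, which include the member Itgb3, 4 were higher in HFD mCherry. DESeq2 called 2 of them, 1 being Itgb3, so the list is not independent of the members. The sum of the 5 was 55.03 to 85 CPM in SD mCherry and 113 to 247 CPM in HFD mCherry. It was 85.2 to 176 CPM in HFD Tert and 77.1 to 162 CPM in HFD TertCi. SD mCherry 3 had the lowest sum of the 12 libraries. Pf4 was at 27.1 to 172 CPM, and Itgb3 supplied 25.7 of the 55.03 CPM in SD mCherry 3. The platelet receptor genes Gp9 and Gp1ba did not exceed 4.47 and 1.503 CPM. Whether Itga2b came from platelets was not tested.

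The αV partners Itgb5 and Itgb3 both had positive fold changes. Itgb5 was at 48.7, 45.9 and 41.7 CPM in SD mCherry and 63.8, 157 and 146 CPM in HFD mCherry, with no overlap and a log2 fold change of 1.43 ± 0.320 (SE). Itgb3 was at 13.1, 16.5 and 25.7 against 22.7, 70.5 and 69.6 CPM, with HFD mCherry 15 below the highest SD mCherry library (log2 fold change 1.56 ± 0.425, SE, edgeR adjusted p = 0.0860). Itgb1 was at 536 to 839 against 672 to 1151 CPM and overlapped. Itgb8, at 1.45 to 6.47 against 1.80 to 3.05 CPM, overlapped as well. Itgb6, the epithelial partner of αV, was lower without overlap, at 11.4 to 42.2 against 0.241 to 10.8 CPM, and its edgeR F-test over the 4 groups gave an adjusted p of 0.613.

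The laminin-binding subunits went both ways. Itga6, whose α6 subunit pairs with β1 or with β4 in hemidesmosomes, was higher without overlap, at 52.0 to 113 CPM in SD mCherry and 145 to 178 CPM in HFD mCherry. Itga3, the α3 subunit of epithelial laminin receptors, was at 94.2, 165 and 115 CPM in SD mCherry and 100, 51.8 and 67.4 CPM in HFD mCherry. The log2 fold change of Itga3 was −0.77 ± 0.311 (SE; edgeR adjusted p = 0.174), and HFD mCherry 15 lay within the SD mCherry range. Itga7, the laminin receptor subunit of muscle, overlapped at 25.2 to 35.9 against 24.2 to 53.3 CPM. The hemidesmosome subunit Itgb4 overlapped as well, at 24.5 to 38.3 against 21.8 to 36.3 CPM (log2 fold change −0.25 ± 0.331, SE; −0.099 without HFD mCherry 15 and −0.48 without HFD mCherry 20).

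Among the laminins, 5 of 11 chains were higher and 6 lower in HFD mCherry by fold change, with a median log2 fold change of −0.09. The chains with positive fold changes, Lama2, Lama4, Lamb1, Lamb2 and Lamc1, are known from mesenchymal and vascular basement membranes. Markers of such cells went both ways. Of 5 endothelial markers 4 were higher, with a sum of 454 to 641 CPM in SD mCherry and 789 to 1457 CPM in HFD mCherry. Of 5 adipose progenitor markers 4 were higher, 3 of them at an unadjusted p under 0.05, with a sum of 657 to 1133 against 946 to 2030.0 CPM. Of 5 pericyte and smooth muscle markers 4 were lower, with a sum of 1359 to 13800.0 against 682 to 1687 CPM. Their part in the laminin differences was not tested. Lamc1, the gamma chain of most laminins, was at 252, 302 and 180 CPM in SD mCherry and 333, 1101 and 1141 CPM in HFD mCherry. The groups did not overlap, and the log2 fold change was 1.81 ± 0.443 (SE; edgeR adjusted p = 0.0729). Lama2, the alpha chain of muscle and stromal basement membrane, was at 58.0, 42.6 and 24.9 against 56.0, 202 and 207 CPM (log2 fold change 1.89 ± 0.521, SE). Lama4, the alpha chain of vessel walls and adipocyte basement membrane, was at 42.0, 37.6 and 33.3 against 41.6, 142 and 141 CPM (log2 fold change 1.53 ± 0.426, SE). In both, HFD mCherry 15 lay below the highest SD mCherry library. Lamb1, a beta chain of embryonic and stromal laminins, was at 134, 149 and 50.7 against 144, 392 and 403 CPM, with the same position of HFD mCherry 15 (log2 fold change 1.49 ± 0.532, SE). Lamb2 was at 183 to 377 against 318 to 687 CPM and overlapped.

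Lamc3, a less common gamma chain, was at 49.1, 37.0 and 31.9 CPM in SD mCherry and 25.6, 14.97 and 21.6 CPM in HFD mCherry, with no overlap. Its log2 fold change was −0.93 ± 0.308 (SE), and it was the 1 member that DESeq2 called lower (edgeR adjusted p = 0.123, DESeq2 adjusted p = 0.0477). Lama1, Lama3, Lama5 and Lamb3 overlapped between the diets, with Lama5, the widespread epithelial and endothelial alpha chain, at 96.5 to 306 against 155 to 217 CPM. Lama5 made up 61.2 to 79.9% of the alpha chains per kb in SD mCherry and 62.6, 35.6 and 43.3% in HFD mCherry, and Lama2 and Lama4 together made up most of the remainder in libraries 17 and 20.

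**Figure D3:**
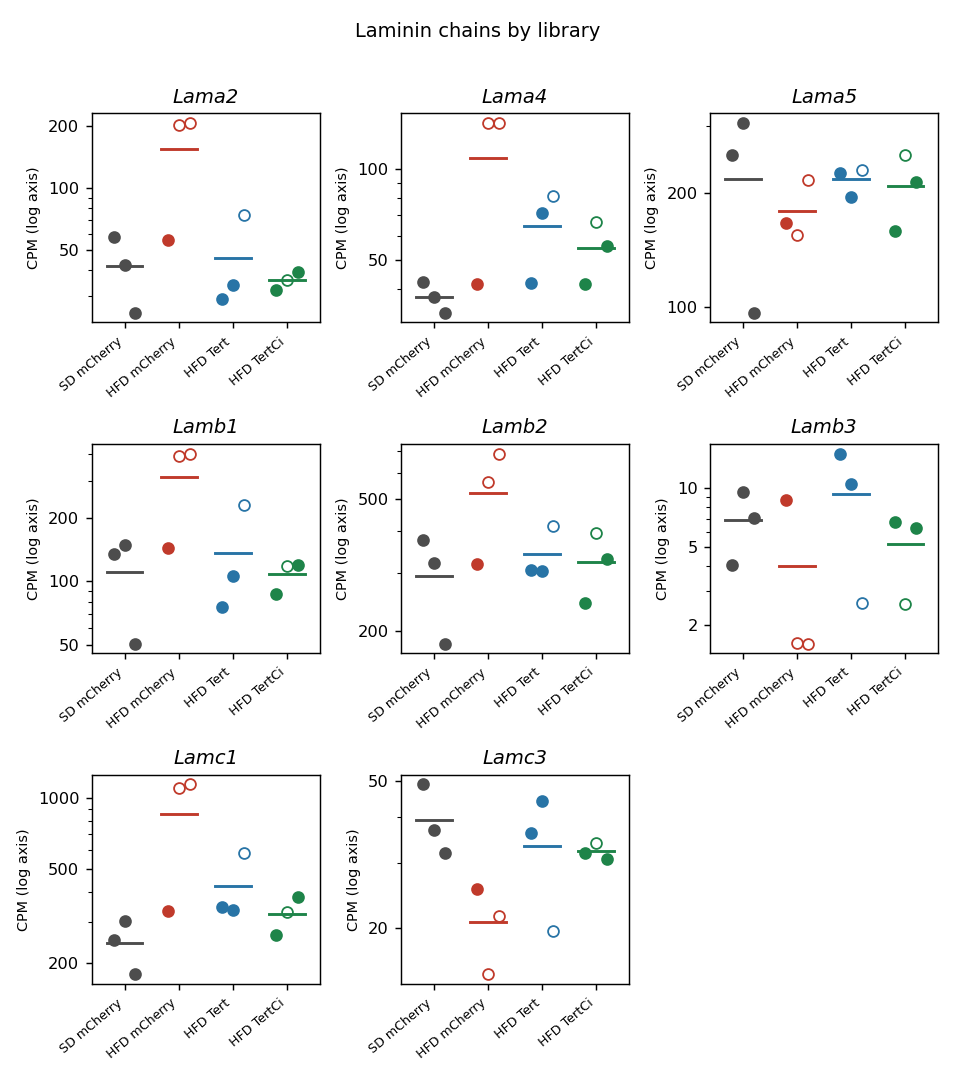
Levels of 8 laminin chains in CPM (log axis) for each library of the 4 groups, with a line at each group mean; filled points have Epcam above 50 CPM and open points below. Lamc1 is highest in HFD mCherry 17 and 20, at 1101 and 1141 CPM, where Lamc3 is at 14.97 and 21.6 CPM.

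The diet comparison depended on HFD mCherry 15. Without it edgeR called 14 members (38.9%), all higher, against 8.76% of all genes. Without HFD Tert 27, which shares the estimate of spread, it called 5 (13.9%), all higher, against 3.33%. Across the 3 SD mCherry libraries and HFD mCherry 15, all of which had Epcam above 50 CPM, the difference in mean log2(CPM + 0.5) was 2.37 for Itgax, 1.96 for Itgb2, 1.08 for Itgam and 1.18 for Itga4. It was 0.48 for Lamc1, 0.50 for Lama2, 0.31 for Itga5 and 0.15 for both Lama4 and Itgav. No SD mCherry library had Epcam below 50 CPM, so for HFD mCherry 17 and 20 the diet and the low epithelial content cannot be told apart. With a term for the Epcam side edgeR called 1 member higher (2.78%), against 0.437% of all genes, and the log2 fold changes fell to 2.38 for Itgax, 1.897 for Itgb2, 1.11 for Lamc1 and 0.74 for Itga5. With a term for Crisp1 it called 11 members higher (30.6%), against 6.6%. With the mean level of the 8 epithelial markers as a covariate it called 6 higher (16.7%), against 5.69%.

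The second comparison, HFD Tert against HFD mCherry, addresses the effect of Tert under the high-fat diet. All 6 tested leukocyte subunits had negative log2 fold changes, with a median of −2.02, as did 7 of 11 laminin chains. Itgae was among the subunits at −3.16, with 6.13 CPM in HFD mCherry 15 and 0.361 and 0.836 CPM in HFD mCherry 17 and 20. Itgav was the 1 tested member below every HFD mCherry library. No member passed edgeR's test (background 0%) or limma-voom (background 0%), and the smallest edgeR adjusted p was 0.191, for Itgav. At an unadjusted p under 0.05, 2 of 36 tested members (5.56%) were higher and 12 (33.3%) lower, against 6.62% and 9.75% of all genes tested. The libraries did not overlap for 1 member higher (Itga1) and 1 lower (Itgav), against 9.99% and 11.1% of all genes, so by that count the members were below the background. DESeq2 called 0 higher and 5 lower (13.9%), against 1.78% and 3.08%. The median log2 fold change was −0.47 over the tested members and −0.05 over all genes tested, and the members' median was −0.29 without HFD mCherry 20.

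Itgav was at 144, 133 and 195 CPM in HFD Tert, all below the lowest HFD mCherry library at 219 CPM. Its log2 fold change was −1.06 ± 0.283 (SE), with a DESeq2 adjusted p of 0.0243. Itgax was at 7.30, 4.11 and 64.1 CPM in HFD Tert, so that HFD Tert 27 was above HFD mCherry 15, and the log2 fold change was −3.16 ± 1.11 (SE; edgeR adjusted p = 0.231). Itgb2 was at 17.6, 10.04 and 79.2 CPM (log2 fold change −2.29 ± 0.748, SE), with the same overlap. Without HFD Tert 27 the log2 fold changes were −5.297 for Itgax and −3.66 for Itgb2, with edgeR adjusted p of 0.0597 and 0.0554. Itgam was at 32.0, 11.3 and 65.8 CPM (log2 fold change −1.74 ± 0.541, SE), and HFD Tert 27 again exceeded HFD mCherry 15. The sum of the macrophage markers was 231, 291 and 1129 CPM in HFD Tert 26, 25 and 27, also highest in HFD Tert 27, and all 6 markers were lower on average than in HFD mCherry. Itgax was 1.78 to 5.67% of that sum, and Itgam 4.90 to 11.02%. All 5 dendritic cell markers were also lower on average, with a sum of 39.5 to 90.2 CPM that overlapped HFD mCherry.

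Lama2 was at 28.9, 34.0 and 74.4 CPM in HFD Tert, with HFD Tert 27 inside the HFD mCherry range. Its log2 fold change was −1.76 ± 0.519 (SE; edgeR adjusted p = 0.200, DESeq2 adjusted p = 0.0294). Lamc1 was at 346, 335 and 587 CPM (log2 fold change −1.02 ± 0.434, SE), all above HFD mCherry 15 at 333 CPM. Lamb1 was at 75.3, 106 and 229 CPM (log2 fold change −1.20 ± 0.528, SE) and Lama4 at 41.8, 71.2 and 81.4 CPM (log2 fold change −0.74 ± 0.418, SE; −1.13 without HFD mCherry 15). Neither was separated from HFD mCherry, and the mean of Lama4 lay between those of the 2 controls. Itga11 was at 3.68, 5.50 and 15.5 CPM (log2 fold change −2.03 ± 0.719, SE), and Itga4 at 12.2, 10.5 and 34.8 CPM (log2 fold change −1.58 ± 0.679, SE). Each had its highest value in HFD Tert 27, the library of the group with the least Epcam.

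Other members showed little or the opposite. Itga1, a collagen receptor of smooth muscle and endothelium, was at 62.3, 85.9 and 70.3 CPM in HFD Tert, above the highest HFD mCherry library at 56.7 CPM. All 5 endothelial markers were higher on average too, with a sum of 789 to 1457 CPM in HFD mCherry and 1116 to 2304 CPM in HFD Tert. Of 5 pericyte and smooth muscle markers 4 were higher, with sums of 682 to 1687 and 1097 to 13410 CPM. The part of these cells in the Itga1 difference was not tested. Of 5 mesothelial markers 4 were higher and 1 lower in HFD Tert. Their sum was 269.6 to 289.7 CPM in HFD mCherry, 602 to 1364 CPM in HFD Tert and 612.5 to 816.5 CPM in HFD TertCi. The part of mesothelial cells in the differences of the members was not tested. Itgb4 was at 71.8, 44.3 and 35.8 CPM (log2 fold change 0.85 ± 0.333, SE), and Lamc3 at 36.2, 44.4 and 19.7 CPM (log2 fold change 0.69 ± 0.308, SE). Both overlapped HFD mCherry, and the values were 0.51 for Itgb4 without HFD Tert 25 and 0.43 for Lamc3 without HFD Tert 26. Itga5 and Itgb3 were at 337 to 640 and 37.1 to 46.8 CPM, inside the HFD mCherry range, and Itga3 was at 90.4 to 134 CPM. Itgb5 was at 60.3 to 93.0 CPM (log2 fold change −0.75 ± 0.316, SE). Of the 36 tested members, 16 were higher and 20 lower by fold change, and the members not named here overlapped HFD mCherry.

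The third comparison, HFD TertCi against HFD mCherry, asks the same of the catalytically inactive form. It uses the same 3 HFD mCherry libraries as the second, so the 2 sets of differences are not independent and are given side by side. No member passed edgeR's test (background 0.012%) or limma-voom (background 0.012%), and the smallest edgeR adjusted p was 0.168, again for Itgav. At an unadjusted p under 0.05, 1 of 36 tested members (2.78%) was higher and 11 (30.6%) lower, against 5.76% and 8.92%. The libraries did not overlap for 1 member higher (2.78%) and 6 lower (16.7%), against 9.45% and 12% of all genes. DESeq2 called 0 higher and 6 lower (16.7%), against 1.13% and 2.57%. The members' median log2 fold change was −0.46 and that of all genes tested −0.04. It was −0.22 without HFD mCherry 17, −0.19 without HFD mCherry 20 and −0.26 without HFD TertCi 30.

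Itgav was at 158, 135 and 125 CPM in HFD TertCi, below all HFD mCherry libraries (log2 fold change −1.23 ± 0.284, SE, DESeq2 adjusted p = 0.00748). Itgb2 was at 19.9, 41.5 and 25.7 CPM, and Itgam at 35.2, 33.5 and 36.0 CPM, both below every HFD mCherry library. Their log2 fold changes were −2.59 ± 0.757 and −1.80 ± 0.542 (SE). Itgax was at 10.5, 48.0 and 11.7 CPM, and HFD TertCi 31 was just above HFD mCherry 15 at 45.4 CPM (log2 fold change −3.26 ± 1.11, SE). The macrophage markers were all lower on average, with a sum of 332 to 557 CPM and the highest value in HFD TertCi 31. In that library Itgax was 8.62% of the macrophage sum, against 3.15 and 2.66% in the other 2.

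Lama2 was at 32.0, 35.7 and 39.4 CPM in HFD TertCi, below every HFD mCherry library (log2 fold change −2.12 ± 0.526, SE, edgeR adjusted p = 0.186, DESeq2 adjusted p = 0.00686). Lamb1, at 86.9, 118 and 120 CPM, was also below every HFD mCherry library (log2 fold change −1.53 ± 0.532, SE), as was Itga11, at 5.31, 9.79 and 6.47 CPM (log2 fold change −2.23 ± 0.725, SE). These 3 genes and Itgav, Itgb2 and Itgam are the 6 without overlap. Lamc1 was at 265, 329 and 380 CPM, with HFD TertCi 33 above HFD mCherry 15 (log2 fold change −1.40 ± 0.438, SE). Lama4 was at 41.5 to 66.8 CPM (log2 fold change −0.99 ± 0.420, SE), and Itga4 at 11.4, 30.3 and 16.7 CPM (log2 fold change −1.55 ± 0.678, SE). Lamc3, at 32.0, 33.9 and 30.9 CPM, was the 1 member above every HFD mCherry library (log2 fold change 0.64 ± 0.307, SE). Itgb4 was at 33.6, 56.0 and 60.3 CPM (log2 fold change 0.83 ± 0.333, SE), and Itgb5 at 56.3 to 79.2 CPM (log2 fold change −0.78 ± 0.316, SE). By fold change 14 of the 36 tested members were higher and 22 lower, and the others all overlapped HFD mCherry.

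Leaving out HFD mCherry 15 gave 3 members called lower by edgeR in the HFD TertCi comparison (8.33%), against 1.08% of all genes, and 0 in the HFD Tert comparison, against 0.287%. With the epithelial score as a covariate edgeR called 5 members lower in HFD TertCi (13.9%) and 8 in HFD Tert (22.2%), against 2.48% and 3.62%. With the Epcam term it called 1 (2.78%) and 2 (5.56%), against 0.622% and 0.826%. Among libraries with Epcam above 50 CPM (2 of HFD Tert, 2 of HFD TertCi and HFD mCherry 15), the difference from HFD mCherry in mean log2(CPM + 0.5) was −2.94 for Itgax in HFD Tert and −1.99 in HFD TertCi. Among those below 50 CPM (1, 1 and 2 libraries) it was −2.28 and −2.70. Itgb2 gave −2.31 and −1.56 above and −1.52 and −2.44 below, and Itgav −0.66 and −0.64 above and −0.97 and −1.50 below. Lama2 gave −0.83 and −0.65 above and −1.45 and −2.50 below. The values of Itgax, Itgb2, Itgav and Lama2 were negative on both sides of the Epcam line. DESeq2 had called these genes lower in both comparisons, so this is not independent of the choice of genes. Lamc1 gave 0.03 and −0.07 above and −0.93 and −1.77 below, so it was lower among the libraries with little Epcam and close to HFD mCherry 15 among the others. Itga5 gave 0.40 and 0.55 above and −0.45 and −0.35 below, and Itgb3 0.74 and 0.50 above and −0.58 and −0.49 below, so that both differed in sign between the sides. These within-side values rest on 1 or 2 libraries a group and have no test.

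**Figure D4:**
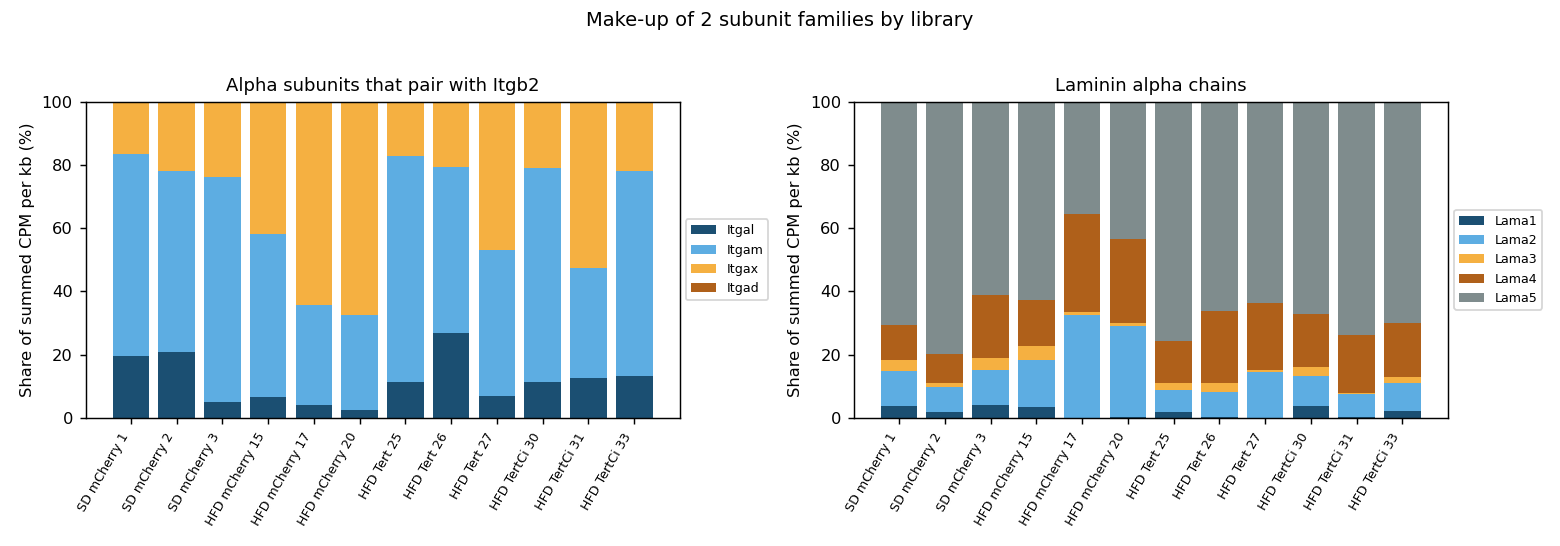
Share of each gene in the summed CPM per kb of its family (%), one bar per library: left, the alpha subunits that pair with Itgb2; right, the 5 laminin alpha chains. Itgax is the largest part of its family in HFD mCherry 17 and 20 (64.1 and 67.4%), HFD TertCi 31 (52.5%) and HFD Tert 27 (46.95%, with Itgam at 46.1%), and Lama5 is under 50% only in HFD mCherry 17 and 20.

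HFD Tert and HFD TertCi were then compared directly, since they differ in the catalytic activity of the protein. No member was called by edgeR (background 0%), limma-voom (0%) or DESeq2 (0.0146% higher, 0.0195% lower). At an unadjusted p under 0.05 there were 0 members, against 0.766% of all genes higher and 0.592% lower. The libraries overlapped for every member, against 2.55% and 2.58% of all genes without overlap. Every edgeR adjusted p was 1. The members' fold changes ran from −1.19 for Lama1 to 0.85 for Lamb3, with a median of 0.06 (all genes −0.01). For Itgax the log2 fold change was 0.11 with a 95% interval of −2.16 to 2.37, and for Lamc1 0.38 with −0.57 to 1.33. Differences within those intervals were not excluded, and the absence of a call does not show that the forms act alike.

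Over all 4 groups at once, edgeR's F-test called 0 members (background 0.012%) and limma-voom 0 (background 0%). The smallest member adjusted p was 0.126, for Itgb2 and Lama2. At an unadjusted p under 0.05 there were 14 of 36 members, against 20.2% of all genes tested, and DESeq2's likelihood ratio test called 10, against 12.8%. Without HFD mCherry 15 edgeR's F-test called 10 members (27.8%), against 3.81% of all genes, and without HFD Tert 27 it called 2 (5.56%), against 0.991%. It called 6 (16.7%) with the epithelial covariate, against 6.33%, 2 (5.56%) with the Crisp1 term, against 1.68%, and 1 (2.78%) with the Epcam term, against 1.51%.

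Values by library of 14 further members are set out here across the 4 groups, with the replicates in the order 1, 2, 3, then 15, 17, 20, then 25, 26, 27, then 30, 31, 33. None was called by edgeR or DESeq2 in a comparison, and their smallest edgeR adjusted p was 0.185, for Lamb2 with diet. Itga1 was at 46.4, 25.1 and 55.96 CPM in SD mCherry, 32.3, 53.8 and 56.7 in HFD mCherry, 62.3, 85.9 and 70.3 in HFD Tert, and 54.4, 66.3 and 65.7 in HFD TertCi. For Itga1 the log2 fold changes with diet, Tert and TertCi were 0.16 ± 0.303, 0.61 ± 0.304 and 0.38 ± 0.304 (SE). Its lowest value was in SD mCherry 2 and its highest in HFD Tert 26. Itga2, a collagen receptor of platelets and epithelium, was at 6.52, 2.42 and 5.97 CPM in SD mCherry, 2.65, 1.68 and 1.97 in HFD mCherry, 8.81, 2.24 and 0.881 in HFD Tert, and 6.07, 0.451 and 6.67 in HFD TertCi. For Itga2 the log2 fold changes with diet, Tert and TertCi were −1.24 ± 0.945, 0.92 ± 0.941 and 1.06 ± 0.942 (SE). It was under 1 CPM in HFD Tert 27 and HFD TertCi 31 alone. Itga10, a collagen receptor of cartilage, was at 4.07, 5.58 and 4.63 CPM in SD mCherry, 3.31, 3.19 and 5.495 in HFD mCherry, 6.42, 4.22 and 3.17 in HFD Tert, and 3.11, 8.31 and 4.01 in HFD TertCi. For Itga10 the log2 fold changes with diet, Tert and TertCi were −0.25 ± 0.447, 0.20 ± 0.447 and 0.36 ± 0.447 (SE). The groups overlapped throughout. Itga8, a receptor subunit for nephronectin in mesenchymal and smooth muscle cells, was at 22.5, 9.795 and 38.5 CPM in SD mCherry, 31.7, 9.44 and 11.8 in HFD mCherry, 31.8, 27.3 and 13.7 in HFD Tert, and 24.9, 25.6 and 24.9 in HFD TertCi. For Itga8 the log2 fold changes with diet, Tert and TertCi were −0.42 ± 0.547, 0.46 ± 0.547 and 0.51 ± 0.547 (SE). Its highest value, as that of Itga2b, was in SD mCherry 3. Itga2b was at 16.95, 10.3 and 63.2 CPM in SD mCherry, 21.8, 11.9 and 12.4 in HFD mCherry, 38.5, 36.3 and 15.5 in HFD Tert, and 48.9, 17.7 and 32.8 in HFD TertCi. For Itga2b the log2 fold changes with diet, Tert and TertCi were −0.97 ± 0.648, 0.97 ± 0.648 and 1.11 ± 0.649 (SE). In each of the other groups its lowest values were in libraries with Epcam below 50 CPM. Itga9 was at 50.8, 58.7 and 35.4 CPM in SD mCherry, 30.9, 72.7 and 77.6 in HFD mCherry, 70.96, 73.5 and 58.6 in HFD Tert, and 36.6, 60.6 and 61.95 in HFD TertCi. For Itga9 the log2 fold changes with diet, Tert and TertCi were 0.32 ± 0.346, 0.16 ± 0.345 and −0.19 ± 0.345 (SE). Its lowest value was in HFD mCherry 15, and the HFD mCherry range took in every other library.

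Itga6 was at 113, 108 and 51.96 CPM in SD mCherry, 145, 178 and 164 in HFD mCherry, 109, 131 and 248 in HFD Tert, and 118, 195 and 166 in HFD TertCi. For Itga6 the log2 fold changes with diet, Tert and TertCi were 0.83 ± 0.366, 0.0003 ± 0.364 and −0.028 ± 0.364 (SE). Both HFD Tert and HFD TertCi overlapped HFD mCherry. Itga7 was at 35.9, 25.2 and 35.5 CPM in SD mCherry, 24.2, 44.4 and 53.3 in HFD mCherry, 42.3, 54.8 and 54.1 in HFD Tert, and 41.4, 45.8 and 46.9 in HFD TertCi. For Itga7 the log2 fold changes with diet, Tert and TertCi were 0.33 ± 0.274, 0.31 ± 0.274 and 0.14 ± 0.273 (SE). HFD mCherry 15 had the least of it. Itgae was at 0.815, 0.291 and 1.16 CPM in SD mCherry, 6.13, 0.361 and 0.836 in HFD mCherry, 0.175, 0.1602 and 0.4701 in HFD Tert, and 0.561, 0.837 and 0.401 in HFD TertCi. For Itgae the log2 fold changes with diet, Tert and TertCi were 1.69 ± 0.987, −3.16 ± 1.06 and −2.02 ± 1.001 (SE). HFD mCherry 15 had the highest value of the 12 libraries. Itgb8 was at 6.47, 4.17 and 1.45 CPM in SD mCherry, 2.82, 1.804 and 3.05 in HFD mCherry, 1.58, 0.908 and 1.88 in HFD Tert, and 1.84, 1.803 and 1.604 in HFD TertCi. For Itgb8 the log2 fold changes with diet, Tert and TertCi were −0.66 ± 0.535, −0.81 ± 0.542 and −0.55 ± 0.539 (SE). Its highest value was in SD mCherry 1. Lama3, the alpha chain of epithelial laminins, was at 11.6, 4.36 and 5.79 CPM in SD mCherry, 11.2, 4.27 and 5.02 in HFD mCherry, 6.83, 7.26 and 2.703 in HFD Tert, and 6.73, 1.74 and 5.26 in HFD TertCi. For Lama3 the log2 fold changes with diet, Tert and TertCi were −0.086 ± 0.612, −0.28 ± 0.613 and −0.57 ± 0.615 (SE). SD mCherry 1 and HFD mCherry 15 had the most of it and HFD TertCi 31 the least. Lama1 was at 10.9, 6.35 and 5.33 CPM in SD mCherry, 8.07, 0.361 and 0.538 in HFD mCherry, 5.02, 0.694 and 0 in HFD Tert, and 7.396, 0.322 and 5.31 in HFD TertCi. For Lama1 the log2 fold changes with diet, Tert and TertCi were −1.33 ± 1.52, −0.65 ± 1.52 and 0.54 ± 1.502 (SE). It was lowest in the 4 libraries with little Epcam. Lamb2 was at 377, 321 and 183 CPM in SD mCherry, 318, 562 and 687 in HFD mCherry, 306, 303 and 415 in HFD Tert, and 243, 396 and 329 in HFD TertCi. For Lamb2 the log2 fold changes with diet, Tert and TertCi were 0.83 ± 0.349, −0.61 ± 0.348 and −0.70 ± 0.348 (SE). HFD mCherry 17 and 20 had the highest values. Lamb3 was at 4.07, 9.55 and 7.01 CPM in SD mCherry, 8.73, 1.62 and 1.61 in HFD mCherry, 15, 10.5 and 2.59 in HFD Tert, and 6.73, 2.58 and 6.27 in HFD TertCi. For Lamb3 the log2 fold changes with diet, Tert and TertCi were −0.78 ± 0.782, 1.23 ± 0.788 and 0.38 ± 0.7797 (SE). Its highest value was in HFD Tert 25.

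Members were also compared across the Epcam line of 50 CPM, which was drawn after its values were seen. Itgb6, the epithelial beta chain Lamb3, the collagen receptor Itga2 and the embryonic and tubular alpha chain Lama1 were among those higher in each of the 8 libraries with Epcam above 50 CPM than in each of the 4 below. In all, 5 of 36 members were separated this way, against 12.5% of all genes tested, which is near the background. Itgb6 was at 6.07 to 42.2 CPM in the 8 libraries and at 0 to 1.49 CPM in the 4. Lama1 was at 0.694 to 10.9 CPM against 0 to 0.538 CPM. Lamb3 and Itga2 were at no more than 2.59 and 1.97 CPM in the 4 libraries. Conversely 6 members (Itga4, Itga5, Itgal, Itgax, Itgb3 and Lamb2) were lower in all 8 than in all 4, against 10.5% of all genes. Crisp1 separated no member (0 of 36), against 2.05% of all genes higher and 0.365% lower with Crisp1. Within-side values and terms are given above, and the part of epithelial content in the differences between groups was not tested.

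**Figure D5:**
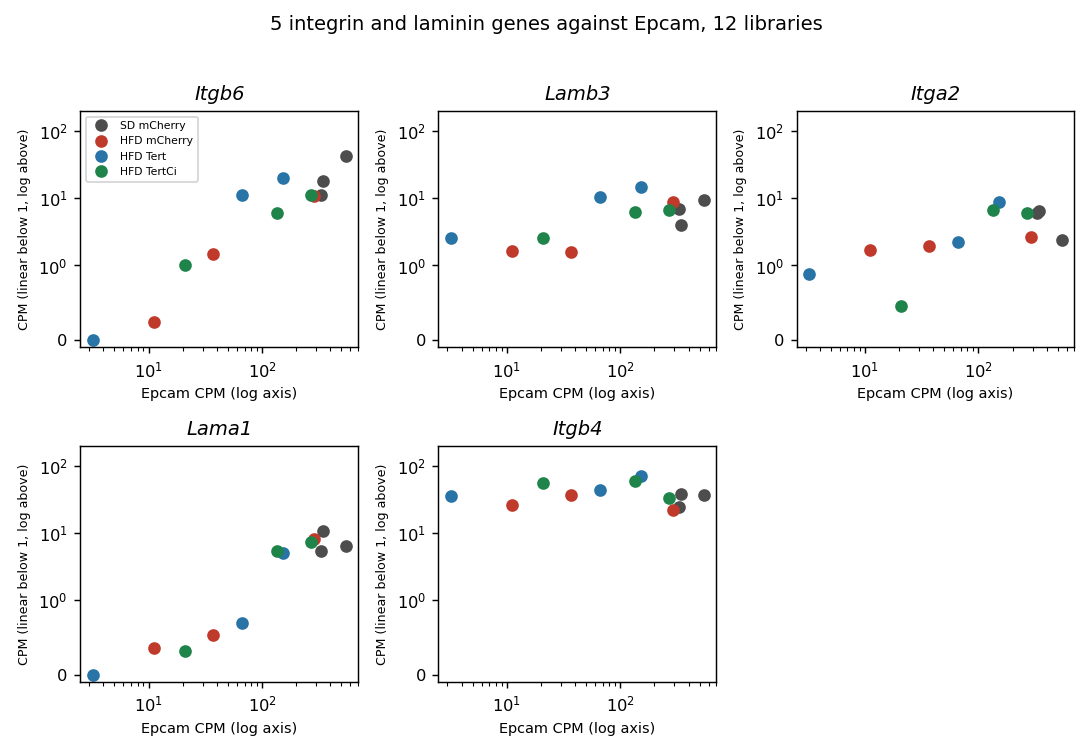
Levels of Itgb6, Lamb3, Itga2, Lama1 and Itgb4 in CPM against Epcam in CPM (log axis), one point per library and one colour per group; the vertical axis is linear below 1 and logarithmic above. Itgb6 is at most 1.49 CPM in the 4 libraries with little Epcam and at least 6.07 CPM in the other 8, whereas Itgb4 shows no such gap.

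Genes that work with the members were counted from 3 lists. Of 23 intracellular activators and adapters, such as the kindlin Fermt3 of blood cells, edgeR and limma-voom called 0 in each comparison. At an unadjusted edgeR p under 0.05 the numbers higher and lower were 6 (26.1%) and 0 (0%) with diet, 1 (4.35%) and 2 (8.7%) in HFD Tert, and 0 (0%) and 3 (13%) in HFD TertCi. DESeq2 called 5 (21.7%) and 0 (0%) with diet, 0 (0%) and 2 (8.7%) in HFD Tert, and 0 (0%) and 1 (4.35%) in HFD TertCi. The same shares of all genes tested were 14.1 and 10% with diet, 6.62 and 9.75% in HFD Tert, and 5.76 and 8.92% in HFD TertCi, and by DESeq2 8.03 and 4.57%, 1.78 and 3.08%, and 1.13 and 2.57%. In HFD Tert the edgeR shares of these genes were thus below those of all genes. In the order SD mCherry, HFD mCherry, HFD Tert, HFD TertCi, the mean of Fermt3 was 10.99 ± 2.35, 49.7 ± 23.0, 13.7 ± 7.57 and 15.2 ± 4.57 CPM (SD, n = 3). Apbb1ip, which recruits talin to integrins in leukocytes, averaged 6.33 ± 2.65, 47.2 ± 27.1, 12.3 ± 8.51 and 13.2 ± 5.47 CPM in the same order. Both had their highest mean in HFD mCherry, as Itgb2 did, the subunit they activate in blood cells. They were named for the smallest F-test p of the list in these data, so this pattern is not independent of the choice. Parvb, an adapter in focal adhesions, averaged 30.3 ± 9.78, 88.2 ± 33.7, 92.3 ± 39.6 and 99.2 ± 52.1 CPM, so its level in HFD Tert and HFD TertCi was near that of HFD mCherry.

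Of 15 basement-membrane partners of laminin, edgeR called 0. At an unadjusted p under 0.05 the numbers higher and lower were 7 (46.7%) and 0 (0%) with diet, 2 (13.3%) and 5 (33.3%) in HFD Tert, and 1 (6.67%) and 5 (33.3%) in HFD TertCi, against the shares of all genes just given. By DESeq2 they were 7 (46.7%) and 0 (0%) with diet, 1 (6.67%) and 0 (0%) in HFD Tert, and 1 (6.67%) and 1 (6.67%) in HFD TertCi. Col4a2, a chain of the main basement-membrane collagen, was at 267, 247 and 171 CPM in SD mCherry and 832, 2133 and 2541 CPM in HFD mCherry. It was at 438, 596 and 1184 CPM in HFD Tert and 467, 710 and 781 CPM in HFD TertCi. For Col4a2 no library of the 2 diets overlapped, HFD mCherry 15 included. The genes named from this list and the next were picked by the smallest F-test p in these data. Their patterns are therefore not independent of the choice. Col4a1, its partner chain, averaged 318 ± 29.1 and 2390 ± 1125 CPM in SD and HFD mCherry, and Sparc, a collagen-binding matricellular protein, 1126 ± 112 and 5621 ± 2309 CPM (SD, n = 3). Of 16 integrin ligands, edgeR called 0. Against the same shares of all genes, the numbers higher and lower at an unadjusted p under 0.05 were 9 (56.2%) and 0 (0%) with diet, 0 (0%) and 7 (43.8%) in HFD Tert, and 0 (0%) and 8 (50%) in HFD TertCi. DESeq2 gave 8 (57.1%) and 0 (0%) with diet, 0 (0%) and 2 (13.3%) in HFD Tert, and 0 (0%) and 4 (28.6%) in HFD TertCi, with 14, 15 and 14 of the 16 tested. Col1a1, a fibrillar collagen chain, averaged 442 ± 211, 3201 ± 1688, 788 ± 247 and 715 ± 179 CPM in the 4 groups in the order above. Tnc, or tenascin-C, averaged 41.5 ± 2.59, 362 ± 197, 203 ± 40.6 and 174 ± 88.7 CPM, and Postn, or periostin, 102 ± 12.2, 1106 ± 438, 483 ± 409 and 325 ± 112 CPM.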

How the data were processed

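RNA-seq of 12 libraries (4 groups of 3) was deposited as raw read counts per gene, 1 table per library. The authors selected mRNA with poly-T beads and primed cDNA with random hexamers, per the labels' protocols. Subread, SAMtools and featureCounts 1.6.4 with build mm10 are named, per the submitters' processing notes. Which annotation was counted, and whether by strand, is not given in the sources used here.

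Deposited counts were analysed with edgeR 4.0.16 in R 4.3.3: filterByExpr, TMM scaling (factors 0.854 to 1.15), a robust quasi-likelihood fit over all 12 libraries, and Benjamini-Hochberg adjustment over 16713 genes at 0.05. Precision was limited by 8 residual degrees of freedom and a biological coefficient of variation of 0.536. DESeq2 1.42.0 and limma-voom (limma 3.58.1) were alternatives, and "called" means an adjusted p under 0.05. CPM are counts per 1000000 after TMM scaling. Exon lengths come from GENCODE M21 (GRCm38, the assembly of mm10) and promoter windows from RefSeq. No 2 replicates agreed within sampling noise. The script was tested on simulated data.

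The members and lists were chosen with earlier results of these data known. Values by library were given for up to 4 members of each role group by the smallest F-test p and a mean of at least 1 CPM. Other members were given by range, and Itgb1, Itgb6, Itgb7, Itgal, Itgad and Lama5 were named outside that rule so that each is accounted for. Pathway genes were named by the smallest F-test p, up to 3 a list. The markers Trac and Ly6g were not used here. Alternatives covered normalization, filters, robust estimation, an epithelial covariate, the 6 libraries compared, and each library left out. Of the 37 members, 1 is counted in the totals and not reported here by itself.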

Additional observations from a re-analysis of the deposited data

How the results depend on the processing

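The number of members called was 0 in every comparison by edgeR, and it moved with the test and with epithelial content. DESeq2 called 13 members for diet, 5 for Tert against HFD mCherry, 6 for TertCi against HFD mCherry and 10 in the F-test. With the epithelial score as a covariate these counts were 6, 8, 5 and 6. With a term for Epcam above 50 CPM, chosen after seeing the data, they were 1, 2, 1 and 1, and with one for Crisp1, also chosen after seeing the data, 11 in the diet comparison and 2 in the F-test. Leaving out each library in turn gave 0 to 14, 0 to 0, 0 to 3 and 0 to 10 members called. The highest counts came without HFD mCherry 15, and without HFD Tert 27 there were 5 in the diet comparison and 2 in the F-test. When a library was left out the members' median ran from 0.39 (without HFD mCherry 17) to 0.69 with diet. Against HFD mCherry it ran between −0.47 and −0.29 for HFD Tert, and between −0.46 and −0.19 for HFD TertCi, each closest to 0 without HFD mCherry 20. With library size alone it was 0.37 with diet. Over all genes, edgeR called 8 in the diet comparison, against 1988 by DESeq2, 1210 with the epithelial covariate and 2082 without HFD mCherry 15. Scaling by library size alone moved the median of all genes in that comparison from −0.08 to −0.28 on the log2 scale. Between HFD Tert and HFD TertCi no setting called a member, but the sign of Itgax reversed with limma-voom (−0.51), the epithelial covariate (−0.73), the Crisp1 term (−0.26) and the Epcam term (−0.48), and ran from −2.03 to 1.18 when a library was left out. With the Epcam term Itgb3 in HFD Tert reversed to 0.017 and Itga5 in HFD TertCi to 0.036. Of 1150 values for 50 results on single genes, 1063 kept their direction and side of the threshold, 78 moved past it and 9 reversed; the causes were not tested. No paired analysis was possible because no replicate number occurs in more than 1 group. Low counts limited Itgad, Itgae and Lama1, which were under 1 CPM in several libraries. Itgb6 was under 1 CPM in HFD mCherry 17 and HFD Tert 27, and Itga2 in HFD Tert 27 and HFD TertCi 31.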
